A study of Mus musculus with 4 samples.

Results

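The giant filament, M-band and myosin binding protein genes described here are 9 of the 53647 genes counted in cultured mouse myotubes, and they were taken by name: Ttn (titin), Neb (nebulin), Obsl1 (obscurin-like 1), Myom1, Myom2 and Myom3 (the myomesins), Mybpc1 and Mybpc2 (the slow and fast skeletal myosin binding proteins C) and Mybph (myosin binding protein H). All 9 passed the filter on low counts. Bulk RNA was sequenced from wild-type (WT) primary myotubes, 2 libraries of control cultures and 2 of cultures given EDA-A2, a ligand of the tumour necrosis factor superfamily that binds the receptor EDA2R. Myoblasts came from the limb muscles of pups aged 2 to 3 days, they were differentiated in horse serum for 48 h, and EDA-A2 was then present at 250 ng/mL for 24 h, which put the harvest of both conditions at 72 h. The control cultures carried no EDA-A2 in the labels, which do not name a vehicle. The labels do not say whether the libraries of a condition came from separate animals or cultures, so p-values measure the spread between these libraries, which may be technical. These are myotubes grown without nerve or load, and primary cultures of this kind can also hold unfused cells.

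A sarcomere is the contractile unit of striated muscle. Titin runs from the Z-disc, where thin filaments are anchored, to the M-band, where thick filaments are tied together, and acts as a spring and a scaffold. Nebulin lies along the thin filament. The myomesins link myosin filaments and titin at the M-band, with obscurin-like 1 bound to them, while myosin binding proteins C and H sit on the thick filament away from the M-band.

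Of the 9 genes, Mybph and Myom3 fell in the EDA-A2 libraries at an adjusted p under 0.05 in edgeR, and none rose. Each change was modest. It was -21.0% for Mybph (95% interval -29.0 to -12.2) and -18.0% for Myom3 (95% interval -25.8 to -9.53). The promoters of these called genes are shown because muscle-selective transcription factors can act there. The 250 bases before the annotated start of each canonical transcript were read from GRCm39 on the plus strand. Capitals mark matches to the E-box CANNTG bound by MyoD and myogenin, to the M-CAT site CATTCC of TEAD factors on either strand, and to the MEF2 consensus, which reads alike on both strands.
Mybph, chr1:134120921-134121170, plus strand: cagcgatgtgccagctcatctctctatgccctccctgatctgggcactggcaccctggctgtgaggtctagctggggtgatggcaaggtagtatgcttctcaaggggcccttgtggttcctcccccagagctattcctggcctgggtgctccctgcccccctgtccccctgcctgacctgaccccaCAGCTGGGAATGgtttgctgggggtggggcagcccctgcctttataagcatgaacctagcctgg
Myom3, chr4:135486767-135487016, plus strand: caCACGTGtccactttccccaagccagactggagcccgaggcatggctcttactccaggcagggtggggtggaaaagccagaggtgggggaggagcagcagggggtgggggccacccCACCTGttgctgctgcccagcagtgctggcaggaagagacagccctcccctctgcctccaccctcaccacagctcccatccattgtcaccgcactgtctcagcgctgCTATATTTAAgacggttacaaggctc
Neither window holds an annotated exon. In the window of Mybph the E-box is of the form CAGCTG, lies 64 to 59 bases before the start and touches an M-CAT match at 58 to 53 bases. The window of Myom3 has E-boxes at 248 to 243 and 133 to 128 bases before the start and a MEF2 match at 26 to 17 bases. An E-box was found in 64.8% of 21770 promoter windows of the same length and in those of 8 of the 9 genes, so its presence is common. CAGCTG was found in 11.9% of windows (2 of the 9 genes, Obsl1 and Mybph), the M-CAT match in 12.1% (Ttn and Mybph) and the MEF2 match in 2.79% (Myom3). A match of letters is no evidence that a factor binds there.

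The 4 libraries were of nearly equal depth, with 29444155 to 29746863 counts on genes and scaling factors by edgeR's TMM method from 0.972 to 1.026. A normalized count is the deposited count after scaling every library to one TMM-adjusted size, their mean. Of 15173 genes tested, 323 were called lower (2.13%) and 371 higher (2.45%), and the median log2 fold change was -0.0021. With library totals in place of TMM factors the split was 194 lower against 485 higher, and the median of all genes was 0.05. All 5 myotube markers were present. Their summed normalized counts were 333350 to 357870 in control and 255050 to 269840 in EDA-A2 libraries. Acta1 and Actc1, both sarcomeric actins, were called lower. Acta1 alone gave 186030 and 173940 of the sum in control and 119000 and 132310 in EDA-A2 libraries. Myog, Tnnt3 and Mymk were not called, with log2 fold changes of -0.18, -0.16 and -0.01 (adjusted p = 0.360, 0.299 and 0.958 in edgeR). All 5 fitted changes were thus negative, but 2 were called. Myog and Tnnt3 were also lower in both EDA-A2 libraries than in both controls, as were 22.2% of all genes tested, while Mymk overlapped. Bulk counts do not separate fewer myotubes from less RNA per myotube.

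**Figure D1:**
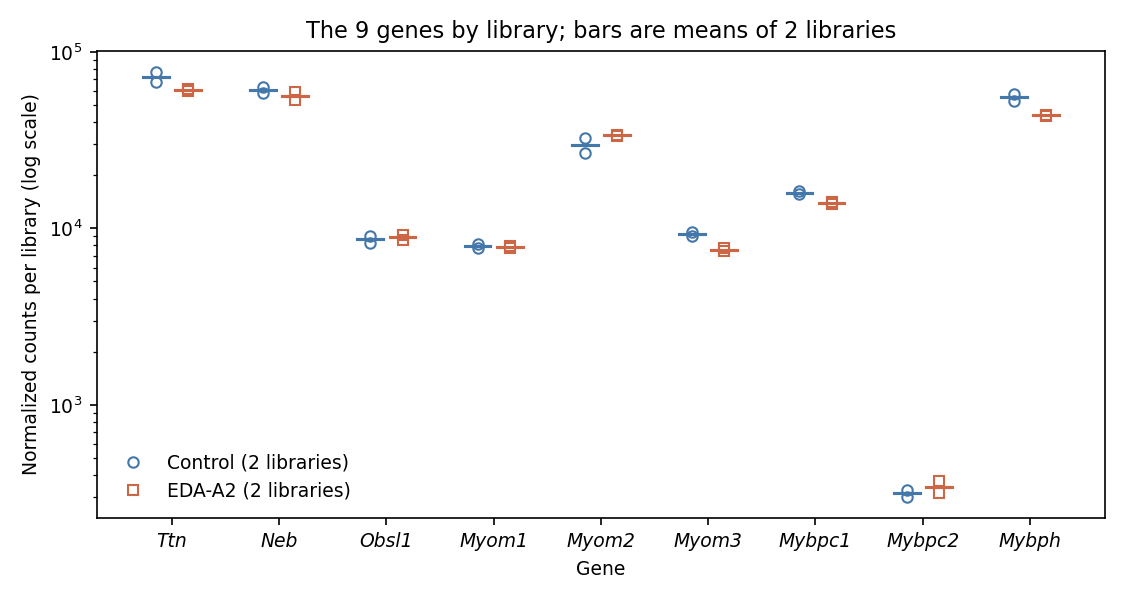
Normalized counts of the 9 genes in each library (log axis), with circles for control, squares for EDA-A2 and bars for the mean of 2 libraries. The EDA-A2 points lie under both control points for Ttn, Myom3, Mybpc1 and Mybph, and above both for Myom2.

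The giant filament genes gave many counts. Ttn ranked 18 to 23 and Neb 25 to 32 by count in the 4 libraries. The canonical Ttn transcript is 107543 bases long in 347 exons (chr2:76534136-76812891, minus strand), and its length adds to its count, so its level per length was low, as given below. Ttn had 77038 and 67606 normalized counts in control and 61676 and 59811 in EDA-A2 libraries. Both EDA-A2 libraries lay below both controls. The log2 fold change was -0.25 (standard error 0.08, 95% interval -0.42 to -0.09), which did not pass edgeR's test (adjusted p = 0.0867). It passed the Wald test of DESeq2 (adjusted p = 0.0350), and with length and GC offsets the change was -0.16 (adjusted p = 0.294 in edgeR). Over all alternatives on the 4 libraries the adjusted p of Ttn ran from 0.0350 to 0.318 (DESeq2 and edgeR). With each library left out the log2 fold change of Ttn was between -0.34 and -0.15.

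Neb (chr2:52026659-52268486, minus strand), whose repeats follow the actin filament over much of its length, had 62930 and 58793 normalized counts in control and 59214 and 53574 in EDA-A2 libraries. The groups overlapped. The log2 fold change of Neb was -0.11 (standard error 0.08, 95% interval -0.27 to 0.05, adjusted p = 0.562 in edgeR), and it was between -0.18 and -0.04 with each library left out. The interval does not exclude a fall by as much as 17.1% or a rise by 3.60%. The ratio of Ttn to Neb counts was 1.22 and 1.15 in control and 1.04 and 1.12 in EDA-A2 libraries, which did not overlap. Normalized counts of single genes did not overlap for 22.2% (lower) and 22.8% (higher) of all genes tested. The ratio carries no test, and neither gene was called by edgeR.

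At the M-band, the 3 myomesin genes did not share one direction. Myom3 (chr4:135487017-135542875, plus strand), the myomesin found in a subset of fibres, had 9032 and 9487 normalized counts in control and 7475 and 7703 in EDA-A2 libraries. The lowest control library lay above the highest EDA-A2 library. Its log2 fold change was -0.29 (standard error 0.07, 95% interval -0.43 to -0.14, adjusted p = 0.0219 by edgeR's quasi-likelihood test). The size of the change in Myom3 was steady, from -0.32 to -0.25 with each library left out, but Myom3 was not called in those fits. They have 1 residual degree of freedom, and the lone library is assumed to vary like the other condition. Without either control replicate edgeR called no gene, so there the loss of the call is not particular to Myom3.

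Myom2 (chr8:15107272-15183541, plus strand) encodes M-protein, the myomesin typical of fast fibres. It had 32460 and 26776 normalized counts in control and 33455 and 33884 in EDA-A2 libraries. Both EDA-A2 libraries lay above both controls, which differed from each other more than the EDA-A2 libraries did. The log2 fold change of 0.18 (standard error 0.08, 95% interval 0.0047 to 0.37) had an unadjusted p of 0.0451 and an adjusted p of 0.303 in edgeR, so Myom2 was not called. It was 0.05 without control replicate 2 and 0.33 without control replicate 1.

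Myom1 (chr17:71309628-71434802, plus strand), the myomesin of all striated muscle, had 7715 and 8197 normalized counts in control and 7908 and 7778 in EDA-A2 libraries. The EDA-A2 values lay inside the control range. Its log2 fold change of -0.02 (95% interval -0.16 to 0.12, adjusted p = 0.934 in edgeR) turned to 0.034 with library totals in place of TMM factors. Obsl1 (chr1:75455954-75483294, minus strand), whose product binds myomesin and titin and has further roles outside the sarcomere, had 8309 and 9027 normalized counts in control and 9167 and 8588 in EDA-A2 libraries. Its groups overlapped. Its log2 fold change was 0.03 (95% interval -0.12 to 0.19, adjusted p = 0.890 in edgeR).

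On the thick filament, Mybph (chr1:134121171-134132301, plus strand) had the largest fitted change of the 9 genes with all 4 libraries. Without control replicate 1, Myom2 (0.33) and Myom3 (-0.32) differed by more than Mybph (-0.27) on the log2 scale. Myosin binding protein H shares the myosin-binding end of the proteins C. Mybph had 57894 and 53038 normalized counts in control and 43383 and 44209 in EDA-A2 libraries, and the conditions did not overlap. Its log2 fold change was -0.34 (standard error 0.07, 95% interval -0.49 to -0.19, adjusted p = 0.0117 by edgeR's quasi-likelihood test). With each library left out the change of Mybph was between -0.40 and -0.27. Mybph was not called in those fits, and without either control replicate edgeR called no gene.

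Mybpc1 (chr10:88354062-88441175, minus strand), the slow skeletal form, had 16207 and 15711 normalized counts in control and 13766 and 14038 in EDA-A2 libraries. Both EDA-A2 libraries were lower than both controls. The log2 fold change of -0.20 (standard error 0.07, 95% interval -0.34 to -0.06) did not pass edgeR's test (adjusted p = 0.120). Mybpc2 (chr7:44150793-44174153, minus strand), the form of adult fast fibres, was the least abundant of the 9, with 326.6 and 301.5 normalized counts in control and 317.6 and 367.6 in EDA-A2 libraries. The groups overlapped, and the log2 fold change of 0.13 had an interval of -0.14 to 0.39 (adjusted p = 0.718 in edgeR). With each library left out the change of Mybpc2 was between 0.015 and 0.23.

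**Figure D2:**
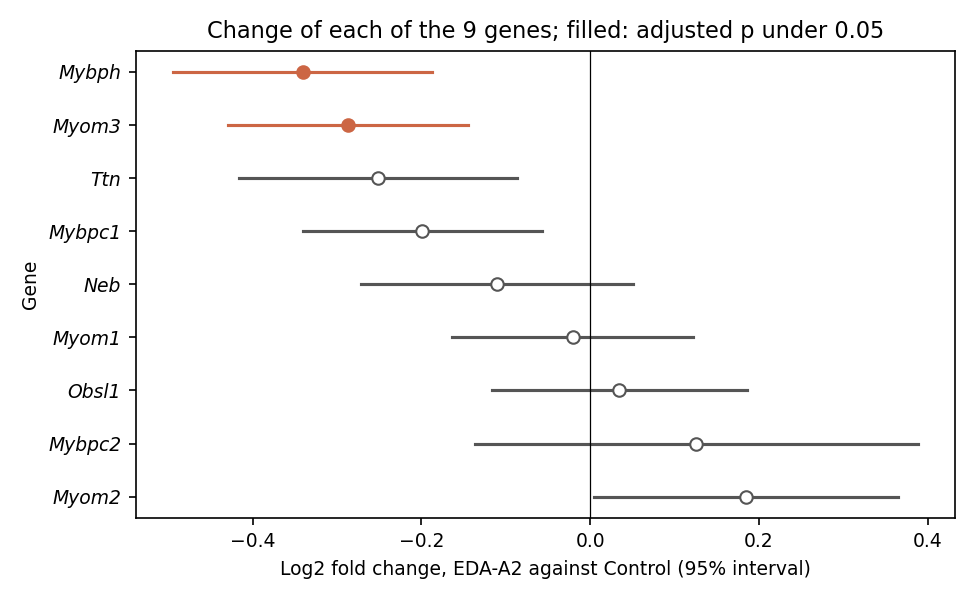
Log2 fold change of each of the 9 genes, EDA-A2 against control, with its 95% interval from edgeR. Filled points passed an adjusted p of 0.05 (Mybph at -0.34 and Myom3 at -0.29), and open points did not.

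Over the 9 genes, 2 were called lower (22.2%, beside 2.13% of all genes tested) and 0 higher (beside 2.45%) by edgeR. At an unadjusted p under 0.05 in edgeR, 4 were lower and 1 higher, beside 8.03% and 7.61% of all genes tested. DESeq2 called 3 lower and 0 higher, beside 2.02% and 2.07% of the 13414 genes it tested. The fitted change was negative for 6 and positive for 3, with a median of -0.11, while 50.5% of all genes tested were negative. The EDA-A2 libraries lay below both controls for 4 genes and above both for 1, beside 22.2% and 22.8% of all genes tested. Without a filter on low counts neither gene was called (adjusted p = 0.113 for Mybph and 0.149 for Myom3 in edgeR), and with library totals Myom3 was not called (adjusted p = 0.0648 in edgeR).

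Levels were compared between genes per length, as FPKM, the count per kilobase of canonical transcript scaled by the TMM-adjusted library size. In control libraries Mybph stood far above the others at 799 ± 49.5 FPKM (SD, n = 2), followed by Myom2 at 183 ± 24.9, Mybpc1 at 132 ± 2.91 and Neb at 87.9 ± 4.23. Myom3 had 56.0 ± 1.95 FPKM, Obsl1 49.1 ± 2.87, Myom1 47.1 ± 2.02, Ttn 22.7 ± 2.10 and Mybpc2 2.88 ± 0.163. Only Obsl1 and Myom1 overlapped between neighbours of this order in control. In the EDA-A2 libraries Mybph had 631 ± 8.41 FPKM, and Myom3 at 45.9 ± 0.975 came to overlap with Myom1 at 46.5 ± 0.546. The order depends on which transcript length is used. With the union of all annotated exons Neb ranked 2, Mybpc1 3 and Myom2 4, while Mybph kept rank 1 and Mybpc2 rank 9.

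Within families, shares of counts per kilobase of canonical transcript were computed in each library. As 2 libraries against 2 allow no permutation p below 0.333, the shares carry no test. Myom2 made up 66.7% and 61.0% of the myomesins in control and 69.2% and 69.4% in EDA-A2 libraries. Myom3 made up 18.1% and 21.1% in control and 15.1% and 15.4% in EDA-A2 libraries, and Myom1 15.2% to 17.9% across all 4. The sizes of these shares depend on the transcript length used. With the union of all annotated exons Myom2 had 63.7 and 52.6 FPKM in control, against 50.5 and 53.0 for Myom3. In EDA-A2 libraries Myom2 then had 65.7 and 66.5 FPKM, against 41.8 and 43.0 for Myom3. The shares of Myom2 and Myom3 did not overlap between conditions and moved in opposite directions. Shares of a family add up to the whole, so a lower share of one gene raises those of the others. Normalized counts also did not overlap for 22.2% (lower) and 22.8% (higher) of all genes tested. Myom2 had 3.59 and 2.82 counts for each Myom3 count in control and 4.48 and 4.40 in EDA-A2 libraries.

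Among the myosin binding proteins, Mybph made up 85.9% and 85.2% in control and 84.2% in each EDA-A2 library. Mybpc1 made up 13.8% and 14.5% in control and 15.4% in each EDA-A2 library. Mybpc2 made up 0.308% in each control library and 0.392% and 0.445% in the EDA-A2 libraries. Mybph dominated the family in every library. None of the 3 shares overlapped between conditions, but they add up to the whole and are not independent. Normalized counts did not overlap for 22.2% (lower) and 22.8% (higher) of all genes tested.

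**Figure D3:**
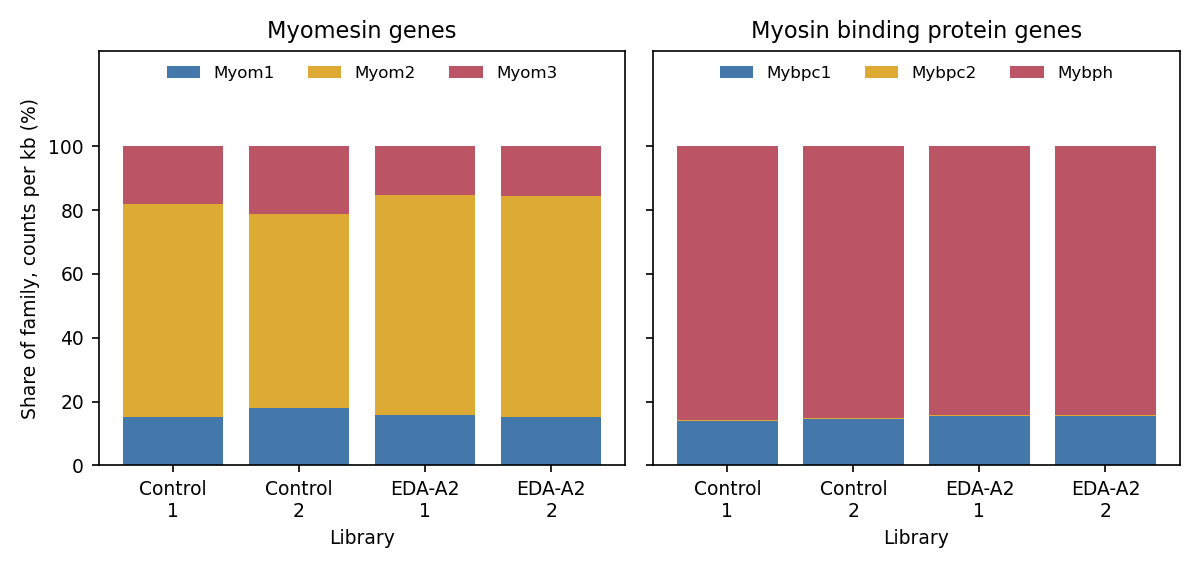
Stacked bars giving the share (%) of each gene within the myomesin family (left) and the myosin binding protein family (right) in each library, as counts per kilobase of canonical transcript. Myom2 holds 61.0% to 69.4% of the myomesins and Mybph 84.2% to 85.9% of the binding proteins.

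The 9 genes were also set against the myosin heavy chains to which several of their products bind. The summed normalized counts of 6 sarcomeric Myh genes were 402960 and 390630 in control and 286510 and 268990 in EDA-A2 libraries, and those of the 9 genes were 271910 and 248940 in control and 236360 and 229950 in EDA-A2 libraries. On the log2 scale the myosin sum differed by -0.51 and the sum of the 9 genes by -0.16. For every 100 counts of myosin there were 19.1 and 17.3 counts of Ttn in control and 21.5 and 22.2 in EDA-A2 libraries. For Myom2 there were 8.06 and 6.85 in control and 11.7 and 12.6 in EDA-A2 libraries, and for Mybph 14.4 and 13.6 in control and 15.1 and 16.4 in EDA-A2 libraries. The ratio was higher in both EDA-A2 libraries for all 9 genes, but so it was for 87.5% of all genes tested, so a higher ratio is not particular to these 9.

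Of 51 further genes of the same structures, 49 could be tested, and 18 were called lower and 1 higher (36.7% lower, beside 2.13% of all genes tested). Their median log2 fold change was -0.24. These lists overlap in function and were chosen with earlier results of the data known. Without control replicate 1 or control replicate 2 edgeR called 0 of the 49 in either direction, as it called 0 of all genes tested, where 2179 and 2448 genes had an unadjusted p under 0.05. Without EDA-A2 replicate 1 or 2 it called 20 and 15 lower, beside 1.05% and 1.08% of all genes tested, and 1 higher each time, beside 1.52% and 1.32%. Without a filter on low counts it called 5 lower and 1 higher, beside 0.0861% and 0.251% of 25545 genes.

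Among the 10 relatives, members of the same protein families, 2 of 8 tested were lower and 0 higher, beside 2.13% and 2.45% of all genes tested. Nrap, a nebulin-related protein of myofibril assembly, had 9641 and 9213 normalized counts in control and 6981 and 6232 in EDA-A2 libraries (log2 fold change -0.51, adjusted p = 0.000623 in edgeR). Igfn1, an immunoglobulin and fibronectin repeat protein of the Z-disc, had 2274 and 1637 in control and 1349 and 1218 in EDA-A2 libraries (log2 fold change -0.61, adjusted p = 0.00698 in edgeR). The change of Igfn1 was -0.35 without control replicate 1 and -0.82 without control replicate 2. Nebl, the cardiac nebulin relative, was low at 36.1 to 63.7 normalized counts and not called (log2 fold change 0.38, adjusted p = 0.594 in edgeR). The cardiac genes Mybpc3 and Mybphl had at most 3 counts in any library and were not tested, so their levels were at the limit of detection.

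Of 14 genes whose products bind titin, 7 were lower and 1 higher, beside 2.13% and 2.45% of all genes tested. Their median was -0.39 on the log2 scale. Actn2, the alpha-actinin that holds titin at the Z-disc, had 29544 and 31802 normalized counts in control and 19275 and 19858 in EDA-A2 libraries (log2 fold change -0.65). Ankrd2, an ankyrin repeat protein of the titin spring region, changed by -1.63, Fhl1 by -0.81, the small heat shock protein Cryab by -0.64 and the protease Capn3 by -0.55. Trim63, the ubiquitin ligase MuRF1 that binds titin near its kinase domain, had 2014 and 2070 normalized counts in control and 3449 and 3795 in EDA-A2 libraries. The log2 fold change was 0.83 with a standard error of 0.07, and Trim63 was the single gene of these lists called higher. The largest adjusted p among these 6 genes was 0.00160 in edgeR, for Capn3.

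Among 12 proteins of thin filament ends and nebulin binding, 3 were lower and 0 higher, beside 2.13% and 2.45% of all genes tested. At an unadjusted p under 0.05 edgeR gave 6 and 0, beside 8.03% and 7.61% of all genes tested. The median of these 12 was -0.15 on the log2 scale. Lmod2, which elongates thin filaments, changed by -0.35, Klhl40, which stabilises nebulin, by -0.38 and the actin-binding Xirp1 by -0.74. Of 9 genes for the M-band and sarcomere assembly, 3 were lower and 0 higher, beside 2.13% and 2.45% of all genes tested. The lower ones were the ankyrin Ank1 by -0.34, the methyltransferase Smyd1 by -0.36 and the filamin Flnc by -0.55 on the log2 scale. Of 6 myosin heavy chains, 3 were lower and 0 higher, beside the same 2.13% and 2.45%. These were the embryonic Myh3 (-0.57), the neonatal Myh8 (-0.38) and the slow Myh7 (-0.86). The largest adjusted p in edgeR among these called genes was 0.0107, that of Ank1, which was not called with length and GC offsets (-0.26, adjusted p = 0.0574). Without EDA-A2 replicate 2 the calls of Ank1, Smyd1, Lmod2, Klhl40 and Myh8 were lost (adjusted p from 0.0603 to 0.134 in edgeR), and without EDA-A2 replicate 1 that of Klhl40 (adjusted p = 0.0519).

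**Figure D4:**
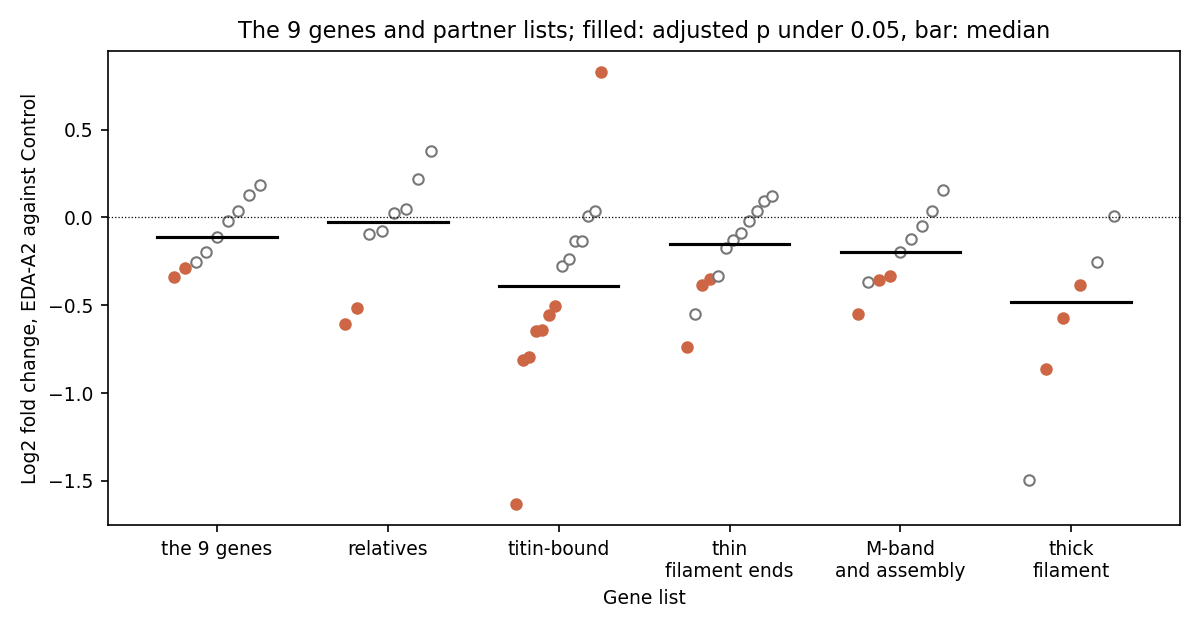
Log2 fold change, EDA-A2 against control, of the 9 genes and of the tested genes of each partner list, with filled points for an adjusted p under 0.05 in edgeR and a bar at the median. The medians run from -0.02 (relatives) to -0.48 (thick filament), that of the 9 genes is -0.11, and the one filled point above 0 is Trim63.

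Exons of all 9 genes except Myom3 overlap an annotated gene on the other strand in GENCODE, and the strand setting of the counting is not given in the sources used here. For Mybph the shared stretch with Adora1 is 3361 bases. Adora1 had 199 and 165 counts in control and 142 and 135 in EDA-A2 libraries, against 44260 to 56191 for Mybph. Myom1 shares 246 bases with Myl12a, a myosin light chain gene of 13717 to 18867 counts that was itself called lower (log2 fold change -0.35, adjusted p = 0.0268 in edgeR). Obsl1 shares 1099 bases with Inha (457 to 504 counts). Whether these neighbours affected the counts of the 9 genes was not tested.

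Markers of other cells were measured beside these changes. The summed normalized counts of 3 myoblast markers were 1396 and 1406 in control and 1208 and 1274 in EDA-A2 libraries, with Calcr at 0 throughout. Those of 5 fibroblast markers were 49596 and 51543 in control and 47309 and 47991 in EDA-A2 libraries, with Lum at 0. Most of this sum was Col3a1, and the fibroblast markers did not share one direction. Col1a1 (log2 fold change -0.46) and Col3a1 (-0.04) overlapped between conditions. Dcn (0.48) and Pdgfra (0.16) were higher in both EDA-A2 libraries than in both controls. For 4 genes of dividing cells they were 19378 to 23059 in control and 21187 to 21536 in EDA-A2 libraries, and for 5 macrophage markers 237.0 to 276.1 in control and 271.2 to 370.5 in EDA-A2 libraries, with Ptprc and Adgre1 at most 2 counts. Endothelial (4 genes) and smooth muscle (2 genes) sums were at most 41.2. Counts were high enough to test 2 of the 3 myoblast, 4 of the 5 fibroblast, 2 of the 5 macrophage and all 4 dividing-cell markers. Only 1 endothelial and 1 smooth muscle marker could be tested. None of the tested markers of these other cells was called by edgeR, and their part in the changes of Mybph and Myom3 was not tested.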

How the data were processed

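Polyadenylated RNA was sequenced by the authors from stranded libraries. Per the labels, reads were checked with FastQC 0.11.9 and MultiQC 1.12, trimmed with Trim Galore 0.6.5, mapped to GRCm39 with STAR 2.7.3a and counted with HTSeq 0.11.1. The annotation release and strand option are not given in the sources used here. The deposited values are whole-number counts per Ensembl gene, 1 table per library, with no normalization. HTSeq's summary lines (12.2% to 13.0% of pairs) were left out. GENCODE matched 52610 of 53647 genes.

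Counts were tested in R 4.3.3 with edgeR 4.0.16 (TMM scaling, low genes removed by filterByExpr at a minimum count of 10 and 15 in total, then glmQLFit and glmQLFTest on condition alone). The Benjamini-Hochberg adjustment ran over 15173 genes, with a threshold of 0.05. Each standard error was taken from the fold change and its F statistic, and 95% intervals use the test's degrees of freedom. The steps were tested on simulated data. Named genes were the 9 genes, up to 6 called genes with the smallest p in each partner list, and Mybpc3, Mybphl and Nebl, and 1 further relative is not reported here. Alternatives, including DESeq2 1.42.0, are given in the closing section. The genes and lists were chosen with earlier results of these data known.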

Additional observations from a re-analysis of the deposited data

How the results depend on the processing

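Of the 9 genes, 2 were called lower with TMM, DESeq2 size factors, upper quartile factors, at least 10 counts in every library, protein-coding genes only, and length and GC offsets (loess span 0.3). Among all genes these settings called 265 to 333 lower, of 13065 to 15173 tested. With total counts 1 was called (Mybph), beside 194 lower among all 15173 genes tested. Without a filter on low counts 0 of the 9 and 5 of the 49 partner genes were called lower, where 25545 genes were tested, with 22 lower and 64 higher among all genes. At an adjusted p under 0.01, 0 of the 9 were called, beside 135 lower among all 15173 genes tested. DESeq2 called 3 of the 9 lower, adding Ttn, beside 271 lower of the 13414 genes it tested. Leaving out each library in turn left 0 of the 9 called, with 0 to 20 partner genes lower and 0 to 1 higher. Each of these fits has 1 library in a condition. Without either control replicate edgeR called no gene at all, so there the loss of calls is not particular to the 9 or to the partner genes. Without either EDA-A2 replicate it still called genes, and the shares of all genes tested are given above with the partner lists. The cause of the differences between settings was not tested. The median of the 9 log2 fold changes stayed negative, from -0.11 to -0.05 across settings and from -0.18 to -0.04 with a library left out. With length and GC offsets 17 partner genes were lower, without Ank1. Myom1 was 0.034 with total counts and ranged from -0.062 to 0.025 when a library was dropped, and Obsl1 ranged from -0.022 to 0.096. With the replicate number as a block, 2 of the 9 and 25 partner genes were called lower, beside 18 without it, and all genes gave 529 lower and 537 higher against 323 and 371. Over the genes tested, the difference between replicates 1 and 2 in control correlated at 0.0598 with that in EDA-A2 libraries. The number is thus not known to pair the libraries. At this depth Mybpc3 and Mybphl, at 0 to 3 counts, could not be compared.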
